A study of Mus musculus with 12 samples.

Results

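The nuclear-encoded genes of the mitochondrial respiratory chain and ATP synthase were followed through an immunoprecipitation of LINE-1 ORF1p from mouse testis. Members were the gene rows whose symbol begins with Nduf (complex I), Uqcr (complex III), Cox4 to Cox8 (complex IV) or Atp5 (complex V), together with Sdha, Sdhb, Sdhc and Sdhd (complex II). The rule uses names only and found 91 of 20981 genes, with 44 in complex I, 4 in complex II, 8 in complex III, 18 in complex IV and 17 in complex V. All 12 libraries came from testes of C57BL/6 mice of the Mael-/- genotype at 3 months of age, so every group lacks Mael and none is wild type. TOTAL, with 3 libraries as in each other group, is RNA of the clarified testis extract with EDTA at 10 mM. INPUT is RNA of sucrose gradient fractions 5 to 8 of such an extract, pooled. IP is what an antibody to LINE-1 ORF1p on beads took from INPUT, and BO is what beads only, without antibody, retained from it. Labels do not say whether replicates came from separate animals. In whole-testis RNA, fewer cells of a type and less RNA per cell cannot be told apart.

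Oxidative phosphorylation passes electrons from NADH through complex I, or from succinate through complex II, to complex III and by cytochrome c to complex IV, and complex V uses the resulting proton gradient to make ATP. The mitochondrial genome encodes a few hydrophobic subunits, and all other subunits are encoded in the nucleus, translated by cytosolic ribosomes and imported. Most nuclear-encoded subunits are small proteins with short mRNAs. Spermatocytes express testis isoforms of some complex IV subunits. ORF1p is the RNA-binding protein that LINE-1 retrotransposons encode and that coats LINE-1 RNA, and the comparisons ask which other mRNAs came down with it. The symbol rule also takes in genes that are not subunits: the Ndufaf assembly factors of complex I, the supercomplex factor Cox7a2l, and Atp5s and Atp5sl. Ndufa4, counted here with complex I by its name, is known as a subunit of complex IV. Chain components with other symbols, among them Cyc1 (cytochrome c1) and Usmg5, are missed by the rule.

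The gene data hold the authors' mean of DESeq2-normalized counts for each group in each of 3 tables, IP against BO, INPUT or TOTAL. A ratio is the log2 of the IP mean plus 1 over the other mean plus 1 within a table, and a gene was counted as higher or lower past 2-fold, with no p-value. Genes with a mean of at least 10 over both groups entered the counts. The same IP libraries stand in all 3 tables under different scaling, and their whole reads could be solved for each gene, with 19754089 to 21387454 gene reads per IP library. Spread is therefore known for IP alone (log2 SD over 3 libraries, median 0.22 over members against TOTAL), and the spread of BO, INPUT and TOTAL is not known here. Mael had 0 reads in each IP library, and its mean was 0.65 in TOTAL and 0 in INPUT. In the repeat table, 1 BO library stood apart, with 52.1% of its repeat reads on large subunit rRNA against 1.93% to 15.9% in the other libraries, and BO means of genes could not be computed without it.

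Cell markers moved between the groups as well. The summed level of 6 of 6 spermatocyte markers was 19929 in TOTAL and 127819 in IP within their table, 19828 in INPUT and 128552 in IP, and 7974 in BO and 98056 in IP. The 5 Leydig cell markers, all detected, summed to 77573 in TOTAL and 15226 in IP, and the 5 Sertoli cell markers to 17840 and 4124. Against BO the Leydig cell markers went the other way, with 5666 in BO and 11645 in IP. The Sertoli cell markers were at 8290 in BO and 3154 in IP, and the 5 spermatogonial markers at 5831 and 2653. Single markers in these sums went both ways. Kit (-1.78) and Zbtb16 (-1.42) were lower in IP, and Stra8 (2.07), Dmrt1 (0.65) and Gfra1 (0.39) higher. Of the Sertoli cell markers Sox9, Wt1 and Cldn11 were lower, and Amh (0.24) and Rhox5 (0.72) higher. The 6 spermatid markers summed to only 347 in TOTAL and 236 in IP, of which Spaca1 made up 231 and 233, and Prm1, Prm2, Tnp1, Tnp2 and Acrv1 were at 11.7 to 39.3 in TOTAL and 0 to 0.859 in IP. Markers of testis cells were thus present, with few late germ cell transcripts. The part of cell type in the results below was not tested.

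Against beads only, respiratory chain mRNAs were mostly higher in the immunoprecipitate. Of 85 members that entered the IP vs. BO comparison, 75 were higher past 2-fold in IP, where 43.9% of all genes were, and 0 were lower, where 11.2% of all genes were. The median log2 ratio was 1.95, a 3.87-fold difference, beside 0.81 over all genes. In 83 members all 3 IP libraries lay above the BO mean (66.5% of all genes), and in 0 did all 3 lie below it (23.8%). Centring on the median gene lowered the median to 1.14 and the count to 47, where 18.3% of all genes were higher. It left 25 of 43 members in complex I, 4 of 4 in complex II, 5 of 8 in complex III, 5 of 14 in complex IV and 8 of 16 in complex V higher past 2-fold. Among counted members Cox7b2 had the highest ratio, 3.92, and the complex I assembly factor Ndufaf4 the lowest, 0.02.

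Compared with the gradient fractions from which it was taken, the immunoprecipitate held slightly less of the median member. In IP vs. INPUT, 12 of 86 members were higher past 2-fold (20.5% of all genes) and 15 were lower (14.6%), with a median of -0.28 beside 0.15 over all genes. All 3 IP libraries were above the INPUT mean in 27 members (48.2%) and below it in 45 (37%). These counts depended on the scaling. Scaled to the sum over genes, 4 members were higher, where 9.10% of all genes were, and 30 were lower, where 28% were. The 4 were Cox7b2, Cox7a2l, Atp5f1 and Atp5s, so the calls of Ndufa10, Ndufaf1, Ndufaf2, Ndufaf3, Ndufs1, Sdhc, Uqcrc2 and Uqcrfs1 as higher than INPUT ended under that scaling. Ratios ran from -2.10 for Cox6a1 to 2.61 for Cox7b2.

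Against the unfractionated extract the members were mostly lower. In IP vs. TOTAL, 64 of 87 members were lower past 2-fold (26.2% of all genes), and 2, Ndufs1 and Atp5s, were higher (20.4%). The median of -2.08 corresponds to a TOTAL level 4.24-fold that of IP, beside a median of -0.03 over all genes. In 74 members all 3 IP libraries lay below the TOTAL mean (44.6%), and in 10 all 3 lay above it (42.7%). Ratios ran from -3.78 for Cox7b to 1.14 for Atp5s. The 3 comparisons share the IP libraries, so they are not independent of each other.

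**Figure D1:**
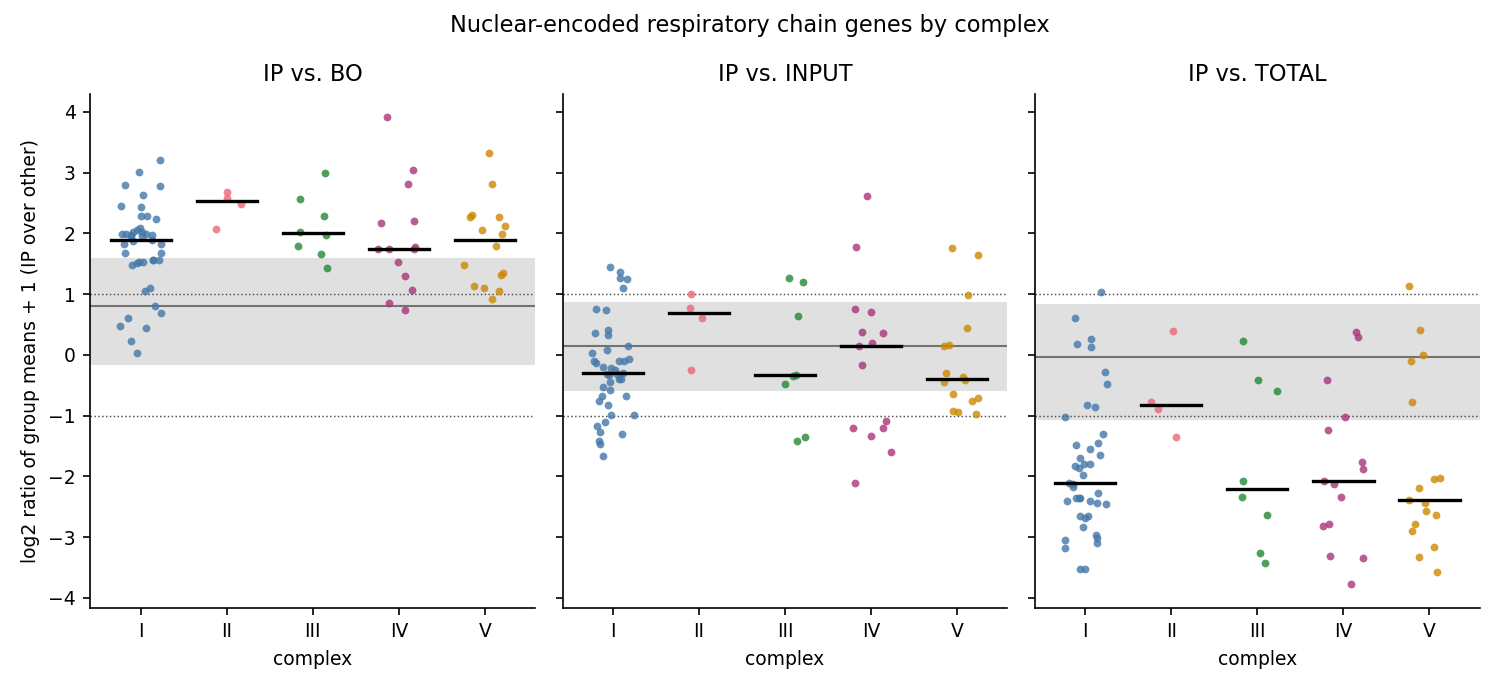
Log2 ratio of the IP mean to the BO, INPUT or TOTAL mean (means plus 1) for each member with a mean of at least 10, by complex. Points are genes, black bars complex medians, the grey line and band the median and interquartile range of all genes, and dotted lines 2-fold; members lie mostly above the band in IP vs. BO (median 1.95) and below it in IP vs. TOTAL (median -2.08).

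The difference from TOTAL was already present in INPUT. INPUT and TOTAL stand in separate tables that were normalized separately, so they were set side by side through the IP values of each table. On that scale 70 of 85 members were lower in INPUT than in TOTAL past 2-fold (16.4% of all genes), with a median of -1.78 beside -0.12. All 85 were below 0, from -2.71 for Uqcrb, a small subunit of complex III, to -0.20 for Ndufab1, the mitochondrial acyl carrier protein. Bare beads then held less of the members than INPUT did. The BO level was lower than INPUT past 2-fold in 76 of 85 members (33.3% of all genes), with a median of -2.09 beside -0.55. Cox6a1 was lowest in BO relative to INPUT, at -3.87, and Ndufaf4 was nearly level, at -0.08.

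Complex I takes electrons from NADH, and its 7 nuclear-encoded core subunits carry the flavin and the iron-sulphur clusters. In TOTAL the mean of Ndufs1, which holds several of these clusters (chr1:63143596-63176833, GRCm38, minus strand), was 3039, and in the 3 IP libraries it was 6406, 6555 and 5610 on the same scale. All 3 IP libraries were therefore higher, and the ratio was 1.03 with a log2 SD of 0.12 in IP. Ndufs1 was also higher than INPUT (1.37, or 0.84 scaled to the gene sums) and BO (1.56, but 0.75 when centred on the median gene and 0.93 scaled to the upper quartile). Without the IP library of middle depth its ratio to TOTAL was 0.98, and it was 0.51 scaled to the gene sums and 0.90 scaled to the upper quartile. The flavoprotein Ndufv1 had a TOTAL mean of 2015 and IP values of 1479, 1992 and 1482. The deviation from TOTAL was small (-0.29). Ndufv2, the other flavoprotein subunit, was at -0.82. Of the 7 core subunits, 3 were lower than TOTAL past 2-fold, where 26.2% of all genes were. Their ratios were -1.80 for Ndufs3, -1.84 for Ndufs7 and -2.40 for Ndufs8. Scaled to the gene sums, 5 core subunits were lower and 0 higher, beside 37.9% and 9.77% of all genes. In Ndufs8 a TOTAL mean of 1066 stood against 199, 215 and 187 in IP. All 7 core subunits were higher than BO past 2-fold, with ratios of 1.52 to 2.29, where 43.9% of all genes were, and 4 were when centred on the median gene, where 18.3% were.

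The 29 accessory subunits of complex I, which surround the core and do not carry electrons, were nearly all lower than TOTAL. In IP vs. TOTAL 28 of 29 were lower past 2-fold, where 26.2% of all genes were, with a median of -2.36. Against BO 25 of 29 were higher, where 43.9% of all genes were, and 18 were when centred on the median gene, where 18.3% were. Ndufb4 had a TOTAL mean of 594 and IP values of 55.9, 47.7 and 48.8, a ratio of -3.52. Ndufa3 followed closely, at -3.52, and Ndufv3 was at -3.10. The exception was Ndufa10, one of the larger accessory subunits, with a TOTAL mean of 2276 and IP values of 2712, 2497 and 2268. Those values lay on both sides of the TOTAL mean, and Ndufa10 was higher than INPUT past 2-fold (0.72 scaled to the gene sums and 0.90 to the upper quartile) and had the highest ratio to BO in complex I (3.20). Scaling to the gene sums lowered the ratios of members to TOTAL by a median of 0.52, so that Ndufa10 and other members near 0 lie on either side of TOTAL depending on the scaling.

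The 7 assembly factors of complex I, which help to build it and leave before it is complete, had higher ratios to INPUT and TOTAL in the median. It was 1.48 against BO, 0.74 against INPUT and -0.48 against TOTAL. Of these, 3 were higher and 0 lower than INPUT past 2-fold, beside 20.5% and 14.6% of all genes. Scaled to the gene sums, 0 were higher and 1 lower, beside 9.10% and 28% of all genes. Against TOTAL 0 were higher and 3 lower past 2-fold, beside 20.4% and 26.2% of all genes. Against BO 4 were higher, where 43.9% of all genes were, and 3 were when centred on the median gene, where 18.3% were. Ndufaf3 had an INPUT mean of 164 and IP values of 459, 557 and 328, the highest ratio to INPUT in complex I (1.44), and its ratio to TOTAL was 0.61. Ndufaf1 stood at 0.18 and Ndufaf7 at 0.27 relative to TOTAL, but Ndufaf5 at -1.56 and Ndufaf6 at -1.46. In Ndufaf4 the BO mean of 141 fell within the IP values of 167, 147 and 114, so no difference from beads only exceeded the IP spread, and IP was lower than TOTAL (-1.65).

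Complex II, succinate dehydrogenase, is also an enzyme of the citric acid cycle and is encoded in the nucleus only. Its 4 subunits were all higher than BO past 2-fold, where 43.9% of all genes were, with a median of 2.53, and had a median of 0.68 against INPUT and -0.83 against TOTAL. Sdha, the flavoprotein that oxidizes succinate (chr13:74322254-74350280, minus strand), had a TOTAL mean of 3762 and IP values of 4396, 6418 and 3950. All 3 libraries were above TOTAL, by a ratio of 0.39, with the library of middle depth the highest. Scaling to the gene sums turned that ratio to -0.13. Sdhb, the iron-sulphur subunit, had a TOTAL mean of 2214 and IP values of 871, 1009 and 732. Under the deposited scaling it was the only complex II gene lower than TOTAL past 2-fold (-1.35), where 26.2% of all genes were. Scaled to the gene sums 3 of the 4 were lower (37.9% of all genes), and scaled to the upper quartile 2 were (28.9%). The membrane anchors Sdhc and Sdhd were at -0.77 and -0.89. Sdhc had a ratio of 1.01 to INPUT, just past 2-fold, which was 0.86 when centred on the median gene, 0.48 scaled to the gene sums, 0.66 scaled to the upper quartile and 0.90 without the shallowest IP library.

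Complex III passes electrons from ubiquinol to cytochrome c. In IP vs. TOTAL the 2 core proteins and the Rieske iron-sulphur protein were apart from the small subunits. Uqcrc2, a core protein (chr7:120635176-120659524, plus strand), had a TOTAL mean of 2975 and IP values of 3818, 3357 and 3227, a ratio of 0.22 that was -0.30 when scaled to the gene sums. It was higher than INPUT (1.27, but 0.74 scaled to the gene sums and 0.92 to the upper quartile) and BO (3.00). Uqcrfs1, the Rieske protein, had a TOTAL mean of 1593 and IP values of 1174, 1385 and 1042, a ratio of -0.41, and was also higher than INPUT (1.20), a call that ended under both of those scalings. Uqcrc1, the other core protein, was at -0.59 relative to TOTAL and -0.33 relative to INPUT. The 5 small subunits were all lower than TOTAL past 2-fold, where 26.2% of all genes were. Uqcr10 had a TOTAL mean of 1591 and IP values of 150.3, 169 and 121, a ratio of -3.43. Uqcr11 was at -3.26, Uqcrq at -2.63, Uqcrh at -2.35 and Uqcrb at -2.07. Cyc1, cytochrome c1 of this complex, falls outside the symbol rule and was at -1.01 relative to TOTAL. All 8 members of the complex were higher than BO past 2-fold, where 43.9% of all genes were. When centred on the median gene 5 were, where 18.3% of all genes were.

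**Figure D2:**
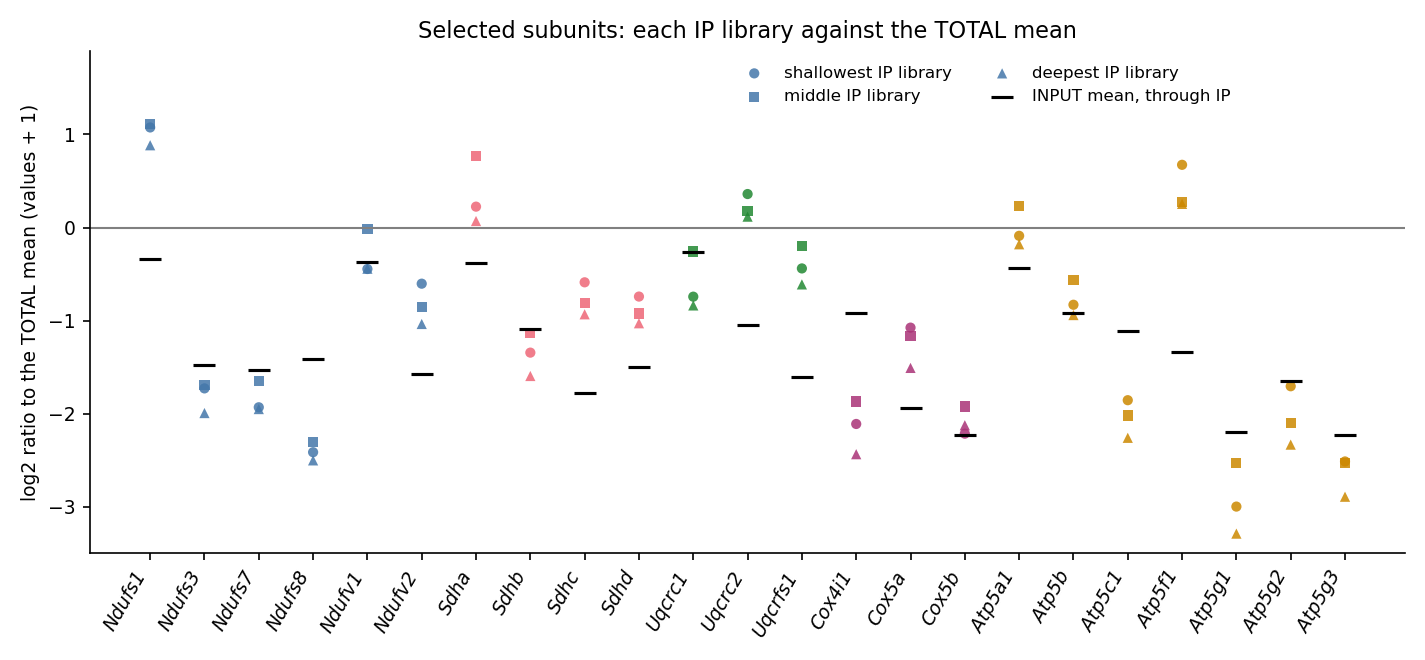
Log2 ratio of each IP library to the TOTAL mean (values plus 1) for 23 subunits, coloured by complex from I (left) to V (right), with INPUT set through IP as a black bar and circles, squares and triangles for the IP libraries with the fewest, intermediate and most gene reads. Ndufs1, Sdha, Uqcrc2 and Atp5f1 have all 3 IP libraries above 0 under the deposited scaling, and Ndufs8, Atp5g1 and Atp5g3 have all 3 below -2.

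Complex IV, cytochrome c oxidase, reduces oxygen. Several of its subunits have a common form and one used in muscle or testis. The testis isoform Cox7b2 had a TOTAL mean of 313, an INPUT mean of 62.9 and a BO mean of 18.7. On the TOTAL scale its IP values were 490.4, 326 and 342, all above TOTAL. Its common partner Cox7b had a TOTAL mean of 1057, an INPUT mean of 233 and a BO mean of 31.8, and IP values of 93.2, 74.7 and 60.5. Each of those IP values is far below TOTAL. The ratios to TOTAL were 0.30 for Cox7b2 (-0.21 scaled to the gene sums) and -3.78 for Cox7b, and the ratios to INPUT were 2.61 and -1.59. Cox7b2 was the gene highest in IP against both BO and INPUT among members, and Cox7b the lowest against TOTAL.

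The coding sequences of this pair are shown because the ratios of the 2 genes to TOTAL differ by far although they encode forms of the same subunit. They are the longest coding sequences in GENCODE M21 (GRCm38), Cox7b2 at chr5:71442965-71443213 on the minus strand and Cox7b at chrX:106015831-106021823 on the plus strand, where introns are spliced out. Capitals mark bases that differ from the partner or have no aligned base in it.
Cox7b2: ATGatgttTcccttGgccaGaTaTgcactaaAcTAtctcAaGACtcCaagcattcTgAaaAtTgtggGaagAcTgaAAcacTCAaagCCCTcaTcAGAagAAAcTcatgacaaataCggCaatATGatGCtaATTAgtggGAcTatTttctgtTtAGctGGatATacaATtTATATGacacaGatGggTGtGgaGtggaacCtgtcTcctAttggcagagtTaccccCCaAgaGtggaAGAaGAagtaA
Cox7b: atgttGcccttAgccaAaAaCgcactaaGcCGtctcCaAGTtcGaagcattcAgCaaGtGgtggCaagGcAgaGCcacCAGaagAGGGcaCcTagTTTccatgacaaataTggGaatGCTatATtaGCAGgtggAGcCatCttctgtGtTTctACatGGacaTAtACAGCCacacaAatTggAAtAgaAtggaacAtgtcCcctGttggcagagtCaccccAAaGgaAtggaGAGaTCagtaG
Over 243 aligned bases 65.4% were identical. The longest run in common was 11 nt, shorter than the 75-nt reads, so reads within one coding sequence can be told from those of the other. The untranslated regions were not compared. Cox7b has 2 annotated pseudogene copies that match its coding sequence at 95% identity or more over a read length, and Cox7b2 has 0. Coding lengths are alike, at 249 and 243 nt, while the longest transcripts have 542 nt for Cox7b2 and 1001 nt for Cox7b.

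A ratio of 2 genes within a library does not depend on the scaling between libraries. The ratio of Cox7b2 to Cox7b was 0.296 in TOTAL and 0.270 in INPUT, as ratios of the authors' means. It was 0.588 in BO and 5.26, 4.36 and 5.65 in the IP libraries. The IP mean of 5.09 ± 0.66 (SD, n = 3) was 17.2-fold that of TOTAL and 8.66-fold that of BO. The other testis isoforms were rarer. Cox6b2 to Cox6b1 was 0.0279 in TOTAL and 0.116 to 0.170 in the IP libraries, 4.88-fold higher in the mean, but 0.105 in BO. Cox8c to Cox8a was 0.0153 in TOTAL and 0.0723 to 0.0872 in IP, 5.22-fold higher, where IP held 12 to 15 reads of Cox8c in each library and its BO mean was only 1.66. The muscle isoform Cox7a1 went the other way. Its ratio to Cox7a2 was 0.133 in TOTAL and 0.0390 to 0.0568 in IP, from 14 to 25 reads per library. Striated muscle markers, 5 of 5 with some reads, summed to 500.1 in TOTAL and 162 in IP, with most of the difference from Tnnt2 (243 and 10.2). Acta1, Ckm and Mb were near 0, at 1.18 to 3.88 in TOTAL, and Mb was higher in IP (1.96). The muscle isoforms Cox6a2 and Cox8b, and Cox4i2, known from lung, were at or near 0 in all groups and were not counted.

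**Figure D3:**
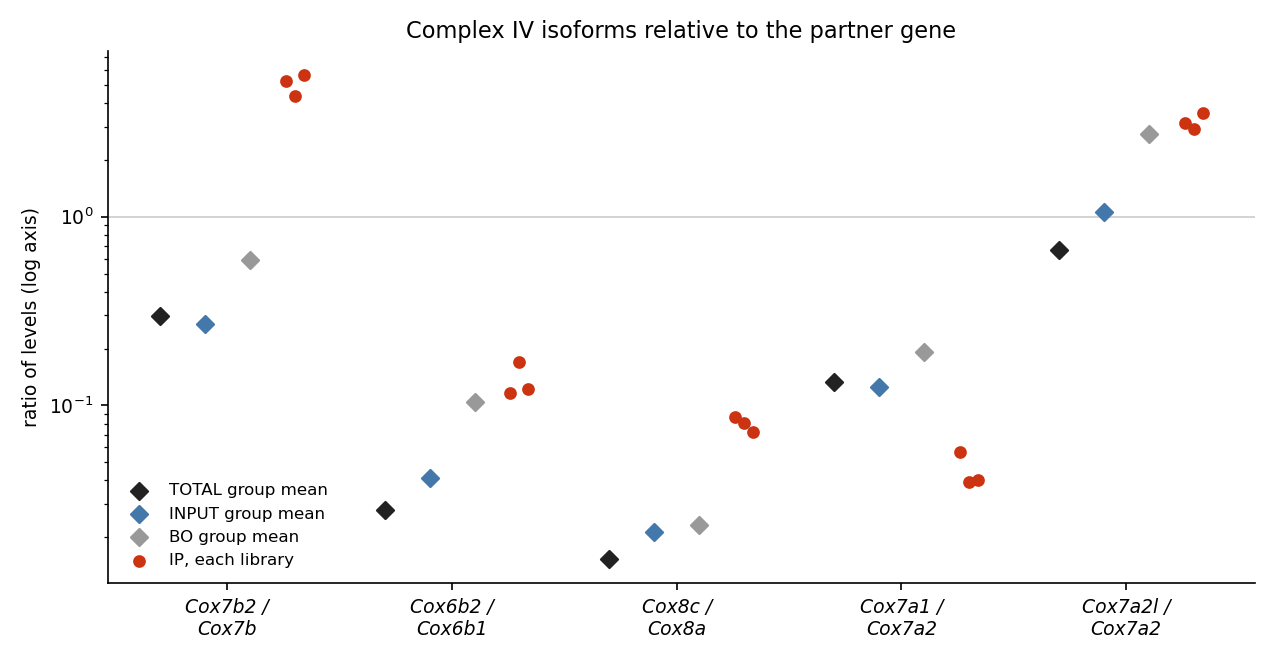
Ratio of the level of an isoform to its partner gene in complex IV, on a log axis, with diamonds for ratios of group means and circles for the 3 IP libraries. Cox7b2 exceeds Cox7b in each IP library (4.36 to 5.65) and is below it in the other groups.

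Cox7a2l, related to Cox7a2 and known for joining complexes III and IV, had a TOTAL mean of 1091 and IP values of 1615, 1345 and 1302. It had the highest ratio to TOTAL in the complex (0.38), which was -0.14 when scaled to the gene sums, and was higher than INPUT by 1.78 and BO by 3.05. Cox7a2l exceeded Cox7a2 by 2.91-fold to 3.56-fold in IP, with a ratio of 0.665 in TOTAL and 1.06 in INPUT but 2.74 in BO. The 10 common subunits of complex IV were all lower than TOTAL past 2-fold, where 26.2% of all genes were, with ratios of -3.78 to -1.24, and stayed so under each of the other scalings. Cox4i1, the largest nuclear-encoded subunit, had a TOTAL mean of 3722 and IP values of 861, 1018 and 687, a ratio of -2.12. Cox6a1 had a TOTAL mean of 2921 and IP values of 397, 582 and 295, a ratio of -2.78. Its ratio to INPUT was the lowest of any member counted (-2.10), and INPUT relative to TOTAL was -0.68, high for a member of its length. Cox6b1 was at -3.32, Cox8a at -2.82 and Cox7a2 at -1.87 relative to TOTAL.

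Complex V makes ATP in its catalytic head, driven by a ring of subunit c. Per kilobase of the longest transcript, Atp5b, the catalytic beta subunit (chr10:128083273-128090391, plus strand), had the highest TOTAL level of all members, at 8077, followed by Cox4i1 at 4865, Cox6a1 at 4711 and Atp5a1, the alpha subunit, at 4650. The order after Atp5b depends on the length used. The longest and median annotated transcripts have 2674 and 816 nt for Atp5a1, but 765 and 608 nt for Cox4i1. The TOTAL mean of Atp5a1 was 12434, and its IP values of 11691, 14614 and 10977 lay on both sides of it. Its ratio was 0.00 against TOTAL and 2.12 against BO. Atp5b had a TOTAL mean of 15475 and IP values of 8706, 10439.9 and 8062, all lower, a ratio of -0.77. The gamma subunit of the central stalk, Atp5c1, had a TOTAL mean of 4934 and IP values of 1363, 1216 and 1030, a ratio of -2.04. The 3 genes for subunit c encode the same mature protein, and their ratios to TOTAL were -2.91 for Atp5g1, -2.02 for Atp5g2 and -2.64 for Atp5g3. Atp5g2 had the lowest ratio to BO among counted members of the complex, 0.93, with a BO mean of 13.8 and IP values of 34.6, 25.2 and 21.6. Atp5k, a small membrane subunit, was lowest against TOTAL, at -3.58. Atp5f1, the peripheral stalk subunit b, stood apart with a TOTAL mean of 3729 and IP values of 5950, 4514 and 4447. It was above TOTAL in all 3 IP libraries (0.41, or -0.10 scaled to the gene sums), and had the highest ratios in the complex to INPUT (1.76) and BO (3.32).

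Atp5s (chr12:69724950-69744660, plus strand), named after a coupling factor and not a subunit of the enzyme proper, had a TOTAL mean of 301 and IP values of 741, 651 and 605. Its INPUT mean was 214 and its BO mean 103. Ratios were 1.14 against TOTAL, 1.64 against INPUT and 2.30 against BO. Under the deposited scaling it was higher past 2-fold in each of the 3 comparisons, which share the IP libraries. Scaled to the gene sums, the ratio of Atp5s to TOTAL was 0.62. Low counts kept Atp5l, Cox8c and Ndufa4l2 out of some or all comparisons. Atp5l has 8 annotated pseudogene copies and only 1 to 3 reads in each IP library.

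The members differ from other genes in length, and their ratios to TOTAL moved with coding length. The longest coding sequence of a member had a median of 441 nt, against 1467 nt for all genes that reached the minimum mean in every table. For the 19 counted members with a coding length under 300 nt the median ratio of IP to TOTAL was -2.57. It was -2.27 from 300 to under 600 nt (42 members), -1.33 from 600 to under 1200 nt (16) and -0.14 from 1200 nt (10). Over all genes the medians of the same classes were -2.12, -1.23, -0.59 and 0.40. The median of members was below that of all genes in each class. In INPUT relative to TOTAL the medians of members were -2.12, -1.90, -1.18 and -0.46, and those of all genes rose from -1.73 in the shortest to 0.17 in the longest class. Spearman's rho of coding length with INPUT over TOTAL was 0.73 across 85 members and 0.72 across all genes, and with IP over TOTAL it was 0.59 and 0.50. By complex, rho with IP over TOTAL was 0.61 in complex I (43 members), 0.90 in complex III (8) and 0.78 in complex V (17), but 0.14 in complex IV (15). Genes of the same libraries are not independent, and these are descriptions. Coding length was chosen after seeing the data. With the longest transcript, the measure first chosen, rho was 0.36 over members and 0.64 over all genes for INPUT over TOTAL, and 0.37 and 0.42 for IP over TOTAL, and the trend was not monotonic. The median ratio of IP to TOTAL was -2.38 for 24 members under 800 nt and -2.27 for 31 from 800 to under 1500 nt. It was -0.59 for 23 from 1500 to under 3000 nt and -2.17 for 9 from 3000 nt. Of those 9, 8 were lower past 2-fold, where 26.2% of all genes of any length were. The all-gene medians of these classes were -2.20, -1.38, -0.44 and 0.34.

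Exceptions to the trend were those described above. Cox7b2 (249 nt) and Cox7a2l (405 nt) were above TOTAL under the deposited scaling at short coding lengths, as were Ndufaf3 (558 nt) and Atp5s (603 nt). Ndufv3, an accessory subunit whose longest annotated coding sequence has 1407 nt, was at -3.10 in IP vs. TOTAL and -1.82 in INPUT relative to TOTAL. Which of its transcript forms was present was not examined, so it may be an exception only by the choice of the longest form. Against BO the 4 length classes had medians of 1.81, 1.87, 2.00 and 2.03 in members, a range of 0.22 where the ratios to TOTAL ranged over 2.43. Sucrose gradients part complexes by how fast they sediment, and the part of that step in the ratios was not tested.

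**Figure D4:**
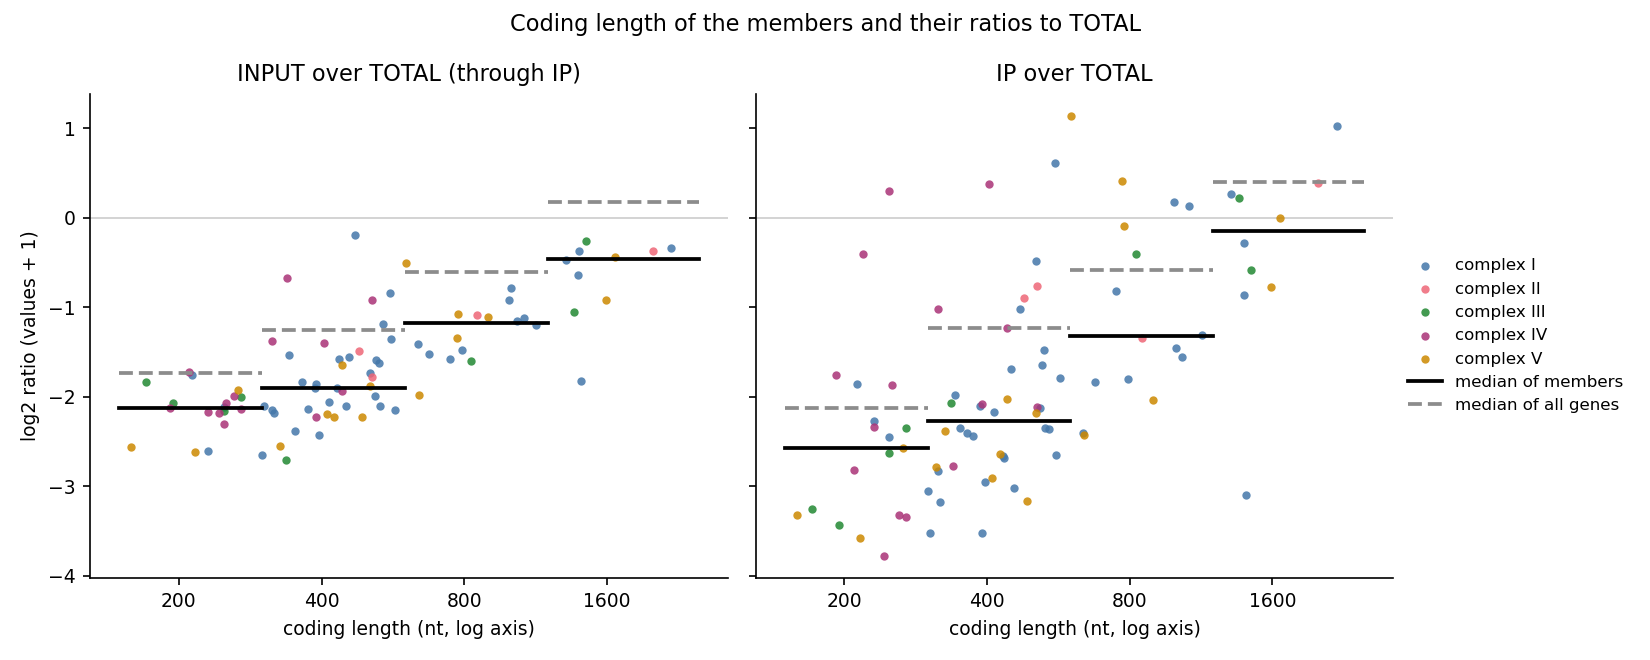
Log2 ratio to TOTAL (values plus 1) against coding length in nt (log axis) for members, coloured by complex, in INPUT (left, set through IP) and IP (right), with medians of members (black) and of all genes (dashed) in each length class. Members rise with coding length in INPUT from a median of -2.12 to -0.46, and in IP a few short genes, such as Cox7b2 at 0.30 under the deposited scaling, lie above the rest.

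Other genes that serve the chain but fall outside the symbol rule gave a mixed picture. Of 35 assembly factors of complexes I to V that entered IP vs. TOTAL, 13 were lower and 0 higher past 2-fold, beside 26.2% and 20.4% of all genes, with a median of -0.45. Against BO, 26 of 34 were higher and 0 lower, beside 43.9% and 11.2% of all genes. Among 12 other chain components, with cytochrome c and cytochrome c1, 7 were lower than TOTAL and 1 was higher past 2-fold, beside 26.2% and 20.4% of all genes. That gene was Hccs, which attaches haem to cytochrome c, at 1.43. Somatic cytochrome c, Cycs, was at -2.36 and its testis isoform Cyct at 0.13, but Cyct was only 0.45 above BO. Atpif1, the inhibitor of ATP synthase, was at -4.06. Usmg5 was at -3.25 and only 0.22 above BO. The 13 citric acid cycle enzymes were near TOTAL in the median (-0.09), with 4 lower and 3 higher, shares near those of all genes. The 13 mitochondrially encoded subunits were not analysed here.

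The members were also set beside 3 other families of housekeeping complexes. In IP vs. TOTAL the median was -1.05 for 77 mitochondrial ribosomal proteins, -0.76 for 39 proteasome subunits and -1.66 for 79 cytosolic ribosomal proteins, against -2.08 for members. In INPUT relative to TOTAL the medians were -1.41, -1.36 and -2.20, against -1.78. In IP vs. BO they were 1.76, 2.12 and 2.52, against 1.95, and in IP vs. INPUT 0.30, 0.56 and 0.51, against -0.28. The differences between families were not tested.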

How the data were processed

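RNA-seq libraries (TruSeq Stranded Total RNA, Ribo-Zero) were read as 75-nt single ends. Per the submitters' processing notes, alignment was to mm10 by STAR (2.6.0c) and group comparison by DESeq2 (1.24.0). The counter and gene annotation are not given in the sources used here. The deposited gene values are a signal, the mean of normalized counts of each group of 3 libraries. The tables also hold the authors' log2 fold changes, standard errors, statistics and p-values, and these were not used. For repeats the deposited signal is an upper-quartile normalized count per library, used only for the rRNA share. A tolerance of 0.25 was set for a whole read in the IP libraries. Within it lay 100% of 20981 genes, and the largest distance was 0.19. Reads recovered in this way carry no replicate number, so IP libraries are named by depth. The other groups allow bounds only, of 9763755 to 20507971 gene reads per BO library, 16482767 to 22224715 for INPUT and 16746725 to 26121686 for TOTAL. Rows that name no gene (unmapped, multimapping, no feature, ambiguous) made up 21.6% to 37.1% of the summed means and were left out. No count model was fitted, since 3 of 4 groups have no value per library.

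Ratios used a pseudocount of 1, a mean of at least 10 and a threshold of 2-fold, computed with pandas 2.3.3 and numpy 2.4.6 in Python 3.11.15. Solving for IP counts was tried on simulated data, in which 100% of IP counts were recovered over 18657 genes. That fit began from the true values of 1 read, rounded, so the step that finds those values was not tested. Symbols were matched to GENCODE M21 for 20701 of 20981 genes and 91 of 91 members. Pseudogene copies were sought with BLAST 2.17.0. Named genes are the highest and lowest member of each complex in each comparison, core and catalytic subunits, complex IV isoforms, and members past 2-fold in all 3 comparisons; others were chosen after their values were seen. One gene that this rule names is not reported here. Members and lists were chosen with earlier results of these data known. Alternatives were other scalings, pseudocounts, filters and thresholds, leaving out IP libraries or members with pseudogene copies, and other lengths.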

Additional observations from a re-analysis of the deposited data

How the results depend on the processing

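No paired analysis was possible because the gene values are group means and the recovered IP libraries carry no replicate number. For the same reason no BO, INPUT or TOTAL library was left out. Centring on the median gene moved IP vs. BO to 47 members higher (median 1.14; 18.3% of all genes) and the BO over INPUT median to -1.43. Scaling to gene sums moved the median against BO to 1.67, against INPUT to -0.81 (4 higher and 30 lower, with 9.10% and 28% of all genes) and against TOTAL to -2.60 (0 higher, with 9.77% of all genes), and gave -2.33 in BO over INPUT. Upper-quartile scaling gave medians of 1.33 against BO, -0.63 against INPUT (6 higher and 26 lower, with 12.1% and 22.7% of all genes), -1.56 in INPUT over TOTAL and -1.82 in BO over INPUT, with 1 member higher in IP vs. TOTAL (17.4% of all genes). A pseudocount of 10 gave a median of 1.69 in IP vs. BO. A threshold of 1.5-fold gave 20 members higher and 27 lower in IP vs. INPUT, beside 34.3% and 24.8% of all genes. Without a filter 1 member, Atp5l, was lower than BO (9.58% of all genes). A mean of at least 100 left 53 members. Of these, 40 were lower in INPUT over TOTAL (12.9% of all genes) and 45 in BO over INPUT (27.7%). Coding length in place of the longest transcript raised rho from 0.37 to 0.59 for IP over TOTAL and from 0.36 to 0.73 for INPUT over TOTAL. The cause of these shifts was not tested.

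Leaving out each IP library in turn, chosen after seeing the data, gave 72 to 76 members higher and 0 lower in IP vs. BO (median 1.84 to 2.04; 40.9% to 45.8% of all genes higher), 10 to 13 higher and 15 to 19 lower in IP vs. INPUT (median -0.31 to -0.18; 19.1% to 23.0% and 14.2% to 16.1% of all genes), and 1 to 2 higher and 62 to 64 lower in IP vs. TOTAL (median -2.13 to -1.98; 18.3% to 22.2% and 25.05% to 27.9% of all genes). Without the library of middle depth Ndufs1 was at 0.98 in IP vs. TOTAL. Other alternatives added after seeing the data were the scalings of INPUT over TOTAL and BO over INPUT, other lengths, and leaving out the 21 members with a pseudogene copy. In all, 142 values of the main results were classed as the same and 26 as moved, but the first class does not mean an equal value. It holds the 75 members higher in IP vs. BO becoming 56 with upper-quartile scaling (23.8% of all genes). It also holds their becoming 50 of 53 with a mean of at least 100 (45.3%). For the 43 named genes 274 of 1032 values moved by more than the IP spread.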
